A study of Gallus gallus with 6 samples.

Results

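Receptor protein tyrosine phosphatases of growing axons were followed in sorted cells of the chick neural tube through 7 genes, PTPRD, PTPRS, PTPRF, PTPRM, PTPRK, PTPRG and PTPRZ1. Every probe set to which the array annotation gives a single gene symbol was taken, where that symbol was a member. This gave 31 of the 38439 probe sets tested, and each of the 7 genes, of 13009 in all, had at least 1. Embryos of White-Leghorn chickens, labelled wild-type, had their neural tubes electroporated at 3 days of incubation, and the cells were taken 24 h afterwards, at day 4. Control cells (Tubb3::CAG:control, 3 arrays) received Tubb3:Cre with CAG:LoxP·mGFP, and TcfEnR cells (Tubb3::CAG:TcfEnR, 3 arrays) received Tubb3:Cre with CAG:LoxP·TcfEnR, a vector for the HMG box of Tcf3 joined to the engrailed repressor that also makes GFP. Cre was driven by a TUBB3 enhancer, so both groups were sorted for GFP from the cells in which this enhancer had been active, and each array came from a separate pool of neural tubes. The paper made the comparison of TcfEnR with control to study Tcf-dependent genes in differentiating neurons. It assumed that genes lower in TcfEnR cells are normally activated by Tcf-dependent transcription, directly or not. The arrays themselves show only which transcripts differ between the groups. All values are log2 signals made by robust multi-array average (RMA), 1 per probe set and array, and a gene was represented by the probe set whose mean signal across all 6 arrays was highest, called the brightest here.

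Receptor protein tyrosine phosphatases span the membrane and remove phosphate from tyrosines of proteins at adhesion sites, where they oppose tyrosine kinases. PTPRD, PTPRS and PTPRF form the LAR subfamily, with immunoglobulin and fibronectin type III domains outside the cell. They bind heparan sulfate and chondroitin sulfate proteoglycans and synaptic adhesion molecules, and liprins, TRIO, ABL and ENAH inside the cell. PTPRM and PTPRK carry a MAM domain, bind the same protein on a neighbouring cell and associate with cadherins and catenins. PTPRG and PTPRZ1 carry a carbonic anhydrase-like domain and bind contactins. PTPRZ1, known from radial glia, also binds pleiotrophin, midkine and tenascins. Receptor phosphatases of these groups take part in axon growth, guidance and synapse formation.

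In the whole series, array medians were 6.93, and Pearson correlations across probe sets were at least 0.978 within groups and at most 0.917 between them. The 5th percentile of the signal was 3.32. Log2 fold changes are TcfEnR minus control from limma, with Benjamini-Hochberg adjustment across 38439 probe sets, and the words rise and fall are kept for an adjusted p of at most 0.05. Calls were common. Of all 13009 genes, 4237 fell and 3256 rose, or 3049 and 4529 with arrays centred on their 75th percentile, a scaling that moved the median log2 fold change of all genes from −0.09 to 0.12. The 2 markers per cell type with the highest control means were named, so their level is no check of the neuronal label. The neuronal genes NEFM and DCX had control means of 12.85 and 11.59. The progenitor genes NES and LFNG had 12.76 and 12.56, and the mesenchyme gene COL1A1 had 10.28, all far above the 5th percentile. The neuronal gene GAP43 had only 5.35. In bulk arrays, fewer cells of a type and less RNA per cell cannot be told apart.

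By their brightest probe sets, 4 of the 7 genes fell in TcfEnR cells, 1 rose and 2 did not pass the test. Among all genes, 32.6% fell and 25% rose. PTPRG, PTPRZ1 and PTPRK fell past 4-fold, as did 3.46% of all genes (1.55% rose past it), and PTPRD fell by less. PTPRM rose slightly, and PTPRS and PTPRF did not pass. The median log2 fold change was −1.70 over the 7 genes by brightest probe set and −0.09 over all genes, whereas it was −0.069 over the 31 member probe sets and 0.022 over all probe sets. Counted by probe set, 11 of the 31 were lower and 3 higher, against 26.2% and 26.5% of all probe sets, and 5 were lower past 4-fold (2.96% of all probe sets). The signals of all TcfEnR arrays lay below those of all control arrays in 11 of the 31 (30.2% of all probe sets) and above them in 7 (31.9% of all probe sets). By brightest probe set this held for 4 genes below (37.3% of all genes) and 1 above (28.8% of all genes).

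**Figure D1:**
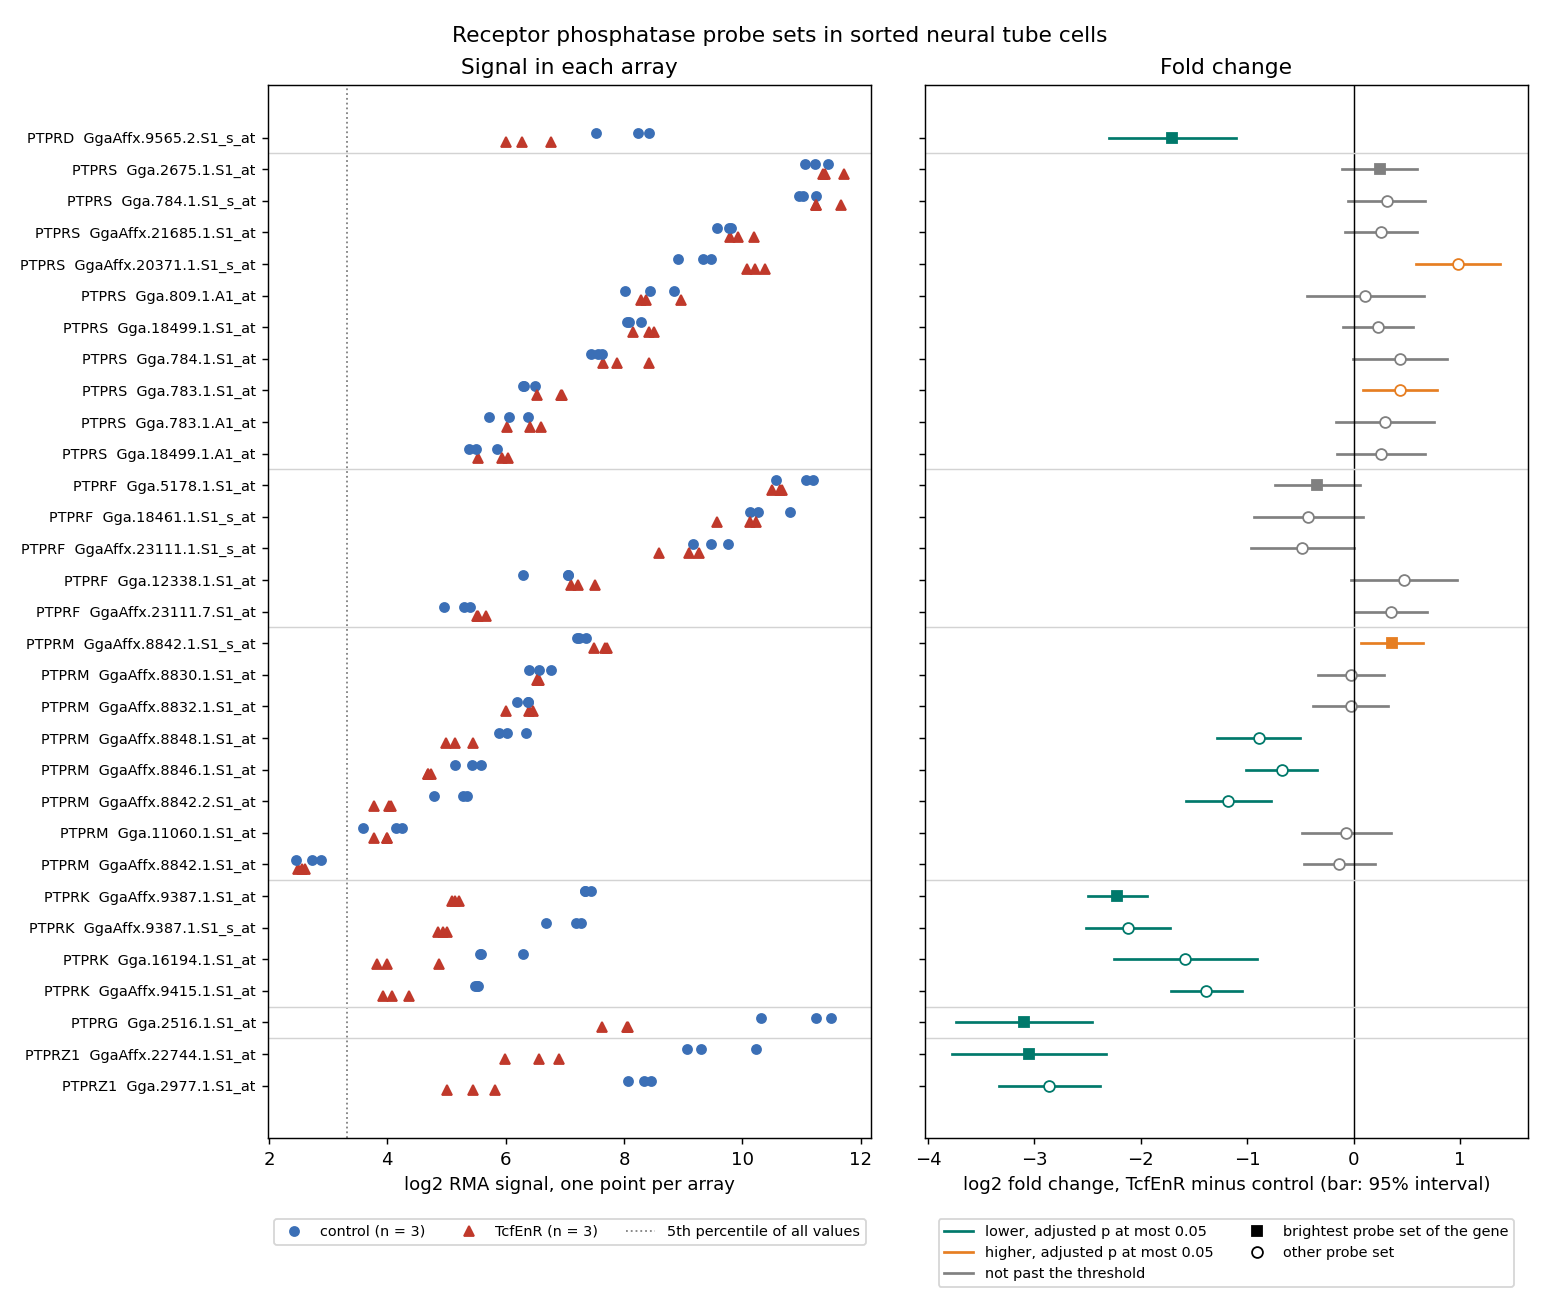
Left, log2 RMA signal of the 31 probe sets of the 7 genes, 1 point per array (circles control, triangles TcfEnR, 3 arrays each), with the 5th percentile of all values as a dotted line. Right, log2 fold change with its 95% interval from limma, with squares for the brightest probe set of a gene. The 7 probe sets of PTPRK, PTPRG and PTPRZ1 lie between −3.10 and −1.38, whereas the 10 of PTPRS lie between 0.11 and 0.98.

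PTPRG, a receptor of the carbonic anhydrase-like group, showed the deepest fall of the 7. Its only probe set read 11.50, 11.23 and 10.31 in control replicates 1, 2 and 3, and 8.07, 7.63 and 8.05 in TcfEnR replicates 1, 2 and 3, an order of arrays kept in all that follows. The groups lay far apart, with the lowest control array, replicate 3, still well above every TcfEnR array. The log2 fold change was −3.10 (SE 0.28), or 8.55-fold lower (limma, adjusted p = 4.38e-05). PTPRZ1, the other member of this group, was measured by both of its probe sets. By the brightest it was at 9.30, 9.06 and 10.22 in control arrays and at 6.56, 6.91 and 5.98 in TcfEnR arrays. Here control replicate 3 was the highest array and TcfEnR replicate 3 the lowest, and the groups did not overlap. The log2 fold change was −3.05 (SE 0.32), or 8.27-fold lower (limma, adjusted p = 9.04e-05). The second probe set was at 8.07, 8.34 and 8.45 in control arrays and at 5.45, 5.83 and 5.01 in TcfEnR arrays, a log2 fold change of −2.86 (SE 0.21). The log2 fold change of PTPRZ1 exceeded that of PTPRG by 0.05, with a wide 95% interval of −2.17 to 2.27.

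The MAM domain receptors PTPRK and PTPRM differed from each other. PTPRK, a homophilic adhesion receptor, was at 7.44, 7.34 and 7.33 in control arrays and at 5.10, 5.21 and 5.14 in TcfEnR arrays by its brightest probe set. The arrays within each group were close together, so that its fall of 2.22 on the log2 scale had the smallest error of the 7 genes (SE 0.12, limma, adjusted p = 4.18e-06). All 4 of its probe sets fell and separated the groups. The other 3 changed by −2.12 (SE 0.17), −1.58 (SE 0.30) and −1.38 (SE 0.15), and the TcfEnR means of the last pair were 4.23 and 4.12, not far above the 5th percentile.

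PTPRM, the closest relative of PTPRK among the members, gave calls in both directions. Its brightest probe set was at 7.20, 7.35 and 7.25 in control arrays and at 7.71, 7.50 and 7.68 in TcfEnR arrays. All TcfEnR arrays were higher, but the step was small, with a log2 fold change of 0.36 (SE 0.13, limma, adjusted p = 0.0419). This call ended without control replicate 1, 2 or 3 (adjusted p = 0.0972, 0.0565 and 0.0769), without TcfEnR replicate 1 or 3 (0.129 and 0.108) and with the replicate number as a block (0.0809). With its probe sets averaged, the gene was lower, with a log2 fold change of −0.33 (limma, adjusted p = 0.0313). Of its other 7 probe sets, 3 fell. The deepest fall was from a probe set at 5.34, 5.27 and 4.79 in control arrays to 4.03, 4.06 and 3.78 in TcfEnR arrays, a log2 fold change of −1.18 (SE 0.18). Its TcfEnR mean of 3.96 was not far above the 5th percentile. The others that fell changed by −0.89 (SE 0.17) and −0.68 (SE 0.15). In each of these 3, all TcfEnR arrays were below all control arrays. The other 4 had log2 fold changes of −0.13 to −0.02 and did not pass, and 1 of them lay below the 5th percentile of the signal in all 6 arrays. Probe sets of a gene can read different parts or forms of its transcript, and which of them the 8 probe sets read was not tested. Among the 59 genes with at least 8 probe sets, 18.6% had calls in both directions, as had 4.2% of the genes with 2 or more probe sets. The fold change of PTPRM by its brightest probe set exceeded that of PTPRK by 2.58 (95% interval 2.24 to 2.92), a pair chosen after its values had been seen.

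In the LAR subfamily, PTPRD fell and the other members did not pass the test. PTPRD, a presynaptic organiser and axonal adhesion receptor, was read by a single probe set at 8.42, 8.24 and 7.52 in control arrays and at 6.01, 6.77 and 6.28 in TcfEnR arrays. The groups did not overlap, and control replicate 3 was again the lowest control array. The log2 fold change was −1.70 (SE 0.26), or 3.26-fold lower (limma, adjusted p = 0.000746). PTPRF, known as LAR, was at 10.57, 11.19 and 11.08 in control arrays and at 10.50, 10.63 and 10.67 in TcfEnR arrays. Control replicate 1 lay among the TcfEnR arrays. The log2 fold change of −0.34 (SE 0.18) did not pass (limma, adjusted p = 0.131), but it was −0.53 and passed without control replicate 1 (adjusted p = 0.0159), and it was −0.04 with quantile normalization repeated. Of its 5 probe sets, 3 had log2 fold changes of −0.48 to −0.34 and 2 had 0.47 and 0.35, and none of the 5 passed.

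PTPRS, a receptor for sulfated proteoglycans known in the chick from retinal axons, showed small differences that ran the other way. By its brightest probe set it was at 11.45, 11.23 and 11.07 in control arrays and at 11.36, 11.40 and 11.71 in TcfEnR arrays. The groups overlapped, and the log2 fold change of 0.24 (SE 0.16) did not pass (limma, adjusted p = 0.219). It passed under each of the 3 other scalings, with 0.52 for repeated quantile normalization, 0.53 for cyclic loess and 0.45 for centring on the 75th percentile (adjusted p = 0.0242, 0.0262 and 0.0308). All 10 probe sets of PTPRS had log2 fold changes above 0, with a median of 0.27. Probe sets of 1 gene measured in the same arrays are not replicates. Only 2 of them passed. The larger rise was of a probe set at 9.47, 9.33 and 8.90 in control arrays and at 10.07, 10.21 and 10.37 in TcfEnR arrays, so that the groups did not overlap, with a log2 fold change of 0.98 (SE 0.17, limma, adjusted p = 0.00152). The other rose by 0.44 (SE 0.16, limma, adjusted p = 0.0405), but not without control replicate 2 or 3 or TcfEnR replicate 1 or 3 (adjusted p of 0.0797 to 0.136), nor with repeated quantile normalization, cyclic loess or a variance trend (adjusted p = 0.0608, 0.148 and 0.0516).

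From the lowest to the highest fold change, the order of the genes was PTPRG, PTPRZ1, PTPRK, PTPRD, PTPRF, PTPRS and PTPRM. Neighbours in this order were compared by the difference between their signals in each array. The order was made from these same fold changes, so every gap is above 0 by construction. The intervals take no account of that choice. With 3 arrays against 3, the smallest p that the exact two-sided permutation test can give is 0.1, so that none of the 6 pairs could pass. The gap was 1.36 between PTPRD and PTPRF, with a 95% interval of 0.11 to 2.61 (exact permutation test, p = 0.1, adjusted over the 6 pairs p = 0.3). The interval of each of the other 5 gaps included 0. The largest of those gaps was 0.83 between PTPRZ1 and PTPRK, with an interval of −0.42 to 2.07. Within the LAR subfamily, the fold change of PTPRS exceeded that of PTPRD by 1.95 (95% interval 1.08 to 2.81), a pair that was chosen after its values had been seen.

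Control arrays differed among themselves, and by their brightest probe sets the members followed this spread in different ways. PTPRD and PTPRG were highest in control replicate 1 and lowest in replicate 3, over ranges of 0.90 and 1.19 log2 units. PTPRS, which did not fall, and PTPRK were also highest in replicate 1 and lowest in replicate 3, over 0.38 and 0.11. The neuronal genes STMN2 and TUBB3 had the same order, with STMN2 at 12.40, 11.59 and 10.48 and TUBB3 at 11.69, 11.51 and 10.76. GAP43, another neuronal marker, ran the other way at 5.25, 5.38 and 5.42, whereas the 12 neuronal markers averaged 10.92, 10.55 and 9.84. PTPRZ1, in contrast, was highest in replicate 3, by 1.16 log2 units over replicate 2. The progenitor genes SOX2, at 10.18, 10.26 and 11.22, and FABP7, at 11.51, 11.72 and 11.97, were highest in the same array. The 13 progenitor markers averaged 10.44, 10.66 and 10.96. Not all of them had this order. VIM was lowest in replicate 3, at 11.54, 11.47 and 11.28, and SOX9 and PROM1 were highest in replicate 2. By their brightest probe sets, PTPRK and PTPRM varied little, over 0.11 and 0.15 log2 units. PTPRF, over 0.61, was highest in replicate 2 and lowest in replicate 1. Other probe sets of these genes differed in spread or order. For example, 1 of PTPRK read 6.68, 7.19 and 7.28, 1 of PTPRM 5.34, 5.27 and 4.79, and 1 of PTPRF 10.13, 10.26 and 10.81. The second probe set of PTPRZ1 was highest in replicate 3 as well, at 8.07, 8.34 and 8.45. Apart from the members, the genes in this comparison were picked after their values had been seen, and 3 arrays are too few for a correlation.

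**Figure D2:**
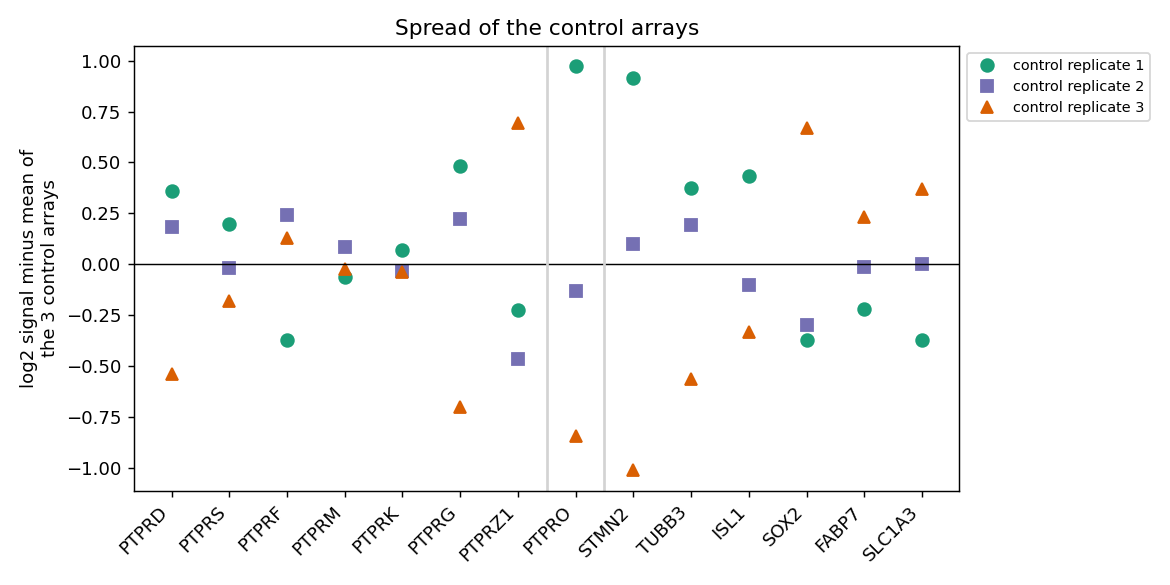
Log2 signal of each of the 3 control arrays minus their mean, for the 7 members, for the related gene PTPRO, for the neuronal genes STMN2, TUBB3 and ISL1 and for the progenitor genes SOX2, FABP7 and SLC1A3. Each gene is shown by its brightest probe set. Control replicate 3 (triangles) is the lowest array for PTPRD, PTPRG, PTPRS and PTPRK and the highest for PTPRZ1.

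Markers of cell types were compared between the groups as well. Of 12 measured neuronal markers, 9 fell and none rose, and their mean signal lay at 9.84 to 10.92 in the controls and at 8.20 to 8.30 under TcfEnR. Of 13 progenitor and radial glia markers, 10 fell and none rose, with mean signals of 10.44 to 10.96 and of 9.17 to 9.42. All 9 measured motor neuron markers fell, among them ISL1, at a log2 fold change of −4.80 (SE 0.20). All 6 measured markers of neural crest and dorsal root ganglion fell as well, with mean signals of 7.93 to 8.09 and of 5.93 to 6.04. Of 10 blood cell markers, none fell and 6 rose. The mean signal of the 10 lay at 7.003 to 7.23 in the controls and at 7.09 to 8.57 under TcfEnR, with TcfEnR replicate 3 the lowest. In that array the globin genes HBA1, HBAD and HBZ, which did not pass, were low, at 6.76, 7.38 and 8.04. In each of the 6 that rose, all TcfEnR arrays were above all control arrays. Of 12 endothelial markers, 1 fell and 3 rose, with mean signals of 6.43 to 7.12 and of 7.02 to 7.09. Of 13 mesenchyme markers, 2 fell and 1 rose, over 6.25 to 8.36 and 6.42 to 6.97. Of the 6 measured markers of dorsal interneurons, 3 fell and none rose, over 7.68 to 8.98 and 7.76 to 7.87. FOXD3, 1 of these 3, is also 1 of the 6 markers of neural crest and dorsal root ganglion. Without control replicate 3, 8 mesenchyme and 4 endothelial markers fell, and without control replicate 1, 2 markers of dorsal interneurons rose. Of all these markers, NTRK2 and LY86 alone had a TcfEnR mean under the 5th percentile of the signal, at 3.21 and 3.01. The part of these values in the falls of PTPRG, PTPRZ1, PTPRK and PTPRD was not tested.

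With genes split by length into 4 groups of equal size, all 7 members fell into the longest, at 125 to 459 kb in RefSeq (assembly GRCg7b), which gave a length for 13004 of the 13009 genes. In that group 48.2% of genes fell and 14% rose, against 24.3% and 33.1% in the shortest group. PTPRS and PTPRZ1, at 125 and 131 kb, were the shortest members, and PTPRM, at 459 kb, was the longest. The part of length in the members' changes was not tested.

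Of 14 other genes for receptor-type tyrosine phosphatases, 12 were measured, of which 3 fell, 4 rose and 5 did not pass, and their median log2 fold change was 0.25. Counts of this and the later lists stand beside 32.6% of all genes that fell and 25% that rose. With centring on the 75th percentile, 7 rose. PTPRN2, a phosphatase-like protein of secretory vesicles, was at 9.60, 9.23 and 10.06 in control arrays and between 6.99 and 7.13 in all TcfEnR arrays, a log2 fold change of −2.59 (SE 0.20, limma, adjusted p = 1.98e-05). PTPRO, known from motor and retinal axons of the chick, was at 9.42, 8.31 and 7.60 in control arrays and at 6.04, 6.32 and 6.28 in TcfEnR arrays, a log2 fold change of −2.23 (SE 0.38, limma, adjusted p = 0.00119). Its control arrays were spread over 1.82 log2 units, in the same order as those of PTPRG and PTPRD. PTPRJ changed by −1.07 (SE 0.26). The 4 that rose did so by less. PTPRC, the leukocyte antigen CD45, rose by 0.83 (SE 0.15) and is itself 1 of the 6 blood cell markers that rose, and PTPRQ rose by 0.76 (SE 0.18), PTPRN by 0.64 (SE 0.13) and PTPRE by 0.47 (SE 0.14) on the log2 scale. PTPRQ was dim, with means of 4.05 in control and 4.81 in TcfEnR arrays, and with dim probe sets left out 3 genes of this list rose. The call of PTPRE ended without control replicate 2 or TcfEnR replicate 1 (limma, adjusted p = 0.0592 and 0.0600) and with cyclic loess (limma, adjusted p = 0.119). PTPRT and PTPRU, which share the MAM domain of PTPRK and PTPRM, had log2 fold changes of −0.26 (SE 0.16) and 0.46 (SE 0.19) and did not pass.

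**Figure D3:**
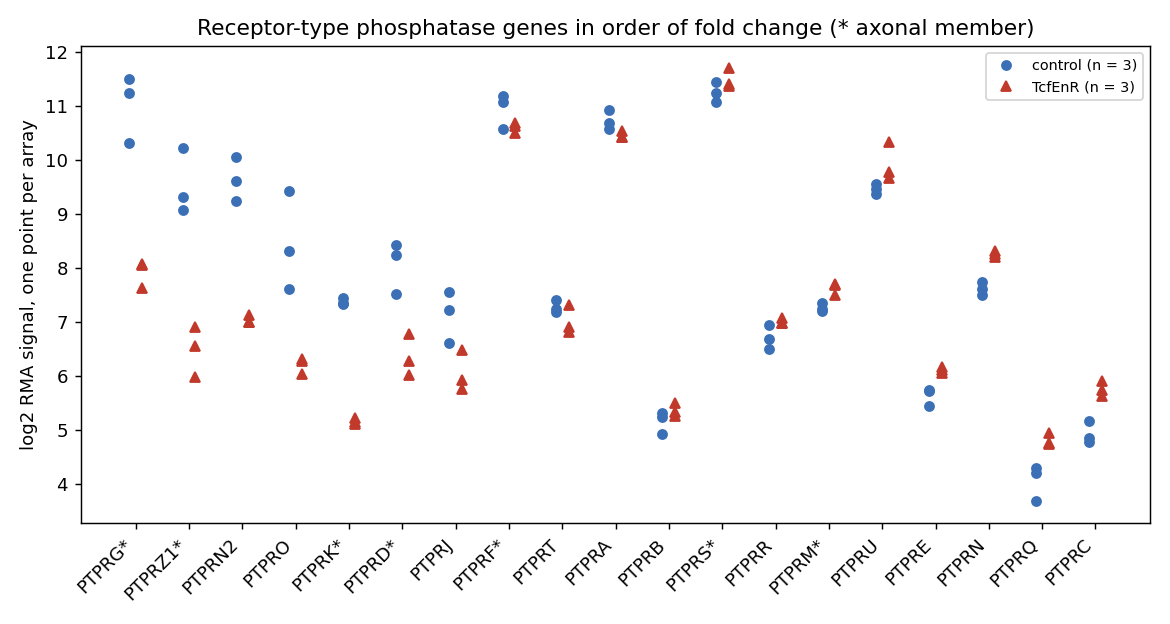
Log2 RMA signal of the 19 measured receptor-type phosphatase genes by their brightest probe sets, 1 point per array (circles control, triangles TcfEnR, 3 arrays each), ordered by log2 fold change, with stars for the 7 axonal members. The groups are far apart at the left end, from PTPRG to PTPRD, and closest in the middle. At the right end, from PTPRE to PTPRC, all TcfEnR arrays lie above all control arrays, by smaller steps. Signals of different probe sets are not comparable.

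Non-receptor tyrosine phosphatases, which lack a membrane span, moved in both directions. Of 13 measured, 5 fell and 2 rose, with a median log2 fold change of −0.31, and the falls numbered 3 without TcfEnR replicate 2. With centring on the 75th percentile, 3 fell and 4 rose. PTPN4 fell by 1.34 (SE 0.13) and PTPN12, which acts on focal adhesion proteins, fell by 1.22 (SE 0.14) on the log2 scale. PTPN6, a phosphatase of blood cells, rose from 4.91 to 7.08, a log2 fold change of 2.17 (SE 0.14, limma, adjusted p = 7.15e-06), and PTPN7, of the same cells, rose by 0.98 (SE 0.14).

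Among ligands and partners at the membrane, 13 were measured, of which 5 fell and 2 rose, with a median of −0.47. Without control replicate 3, 8 fell, and without control replicate 2 or TcfEnR replicate 2 only 1 rose. The PTPRZ1 ligand gene PTN (pleiotrophin) was at 12.29, 12.43 and 12.81 in control arrays and at 11.20, 11.86 and 10.81 in TcfEnR arrays. Like PTPRZ1 it was highest in control replicate 3 and lowest in TcfEnR replicate 3, and it fell by 1.22 on the log2 scale (SE 0.26, limma, adjusted p = 0.00392). MDK (midkine), the related ligand, had a log2 fold change of −0.16 (SE 0.15) and did not pass. The adhesion molecule genes NRCAM and NCAM1 fell by 1.92 (SE 0.18) and 1.46 (SE 0.16). TNR (tenascin-R) rose from 5.36, 5.51 and 5.43 in control arrays to 7.95, 8.13 and 8.41 in TcfEnR arrays, a log2 fold change of 2.73 (SE 0.15, limma, adjusted p = 4.18e-06), whereas TNC (tenascin-C) changed by −0.78 (SE 0.26). Of the 6 contactin genes, CNTN6 rose by 0.48 (SE 0.14) and the other 5 did not pass. Without control replicate 3, CNTN1, CNTN2 and CNTN4 fell, at log2 fold changes of −0.67, −0.95 and −0.88 (limma, adjusted p = 0.0126, 0.0120 and 0.00141). CNTN1 also fell with repeated quantile normalization and cyclic loess (limma, adjusted p = 0.0438 and 0.0285) and CNTN4 with array weights (limma, adjusted p = 0.0223). The rise of CNTN6 was lost without control or TcfEnR replicate 2 (limma, adjusted p = 0.0567 and 0.0520).

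Of 18 proteoglycan genes, which encode carriers of the sugar chains that PTPRS binds, 4 fell and 2 rose, with a median of 0.10. The number that rose was 4 without control replicate 2, with repeated quantile normalization or with cyclic loess, and 1 without TcfEnR replicate 3. VCAN (versican) fell from 11.02, 10.90 and 10.83 in control arrays to 7.86, 7.03 and 7.73 in TcfEnR arrays, a log2 fold change of −3.38 (SE 0.21, limma, adjusted p = 7.41e-06). SDC2 and GPC3, which carry heparan sulfate, changed by −1.10 (SE 0.16) and −0.89 (SE 0.21), and CSPG4 by 1.18 (SE 0.17).

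Of 11 genes for postsynaptic partners of the LAR subfamily, 3 fell and 3 rose, with a median of 0.01, and 1 fell without control replicate 2 or TcfEnR replicate 1 or 3 or with centring on the 75th percentile. LRFN3 rose from 10.47, 9.95 and 9.70 to 12.29, 12.26 and 12.27, with no overlap between groups and a log2 fold change of 2.23 (SE 0.19, limma, adjusted p = 3.16e-05). NTRK3, the neurotrophin-3 receptor and a ligand of PTPRS, rose by 1.32 (SE 0.36), but not without TcfEnR replicate 3 (limma, adjusted p = 0.0531). SLITRK4 fell by 1.34 (SE 0.18). LRFN2 changed by −1.31 (SE 0.44), but its groups overlapped, with control replicate 3 at 4.84 and TcfEnR arrays at 4.38 to 5.05. This call ended without control replicate 1 or 2 or any TcfEnR replicate (limma, adjusted p of 0.0543 to 0.112). It also ended with centring on the 75th percentile (limma, adjusted p = 0.0547).

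Inside the cell, 8 of 15 genes for partners and effectors of the LAR subfamily fell and 1 rose, with a median of −0.48, and the falls numbered 5 without control replicate 2 or TcfEnR replicate 1 and 4 without TcfEnR replicate 2 or with centring on the 75th percentile. The rise was lost without TcfEnR replicate 2 or 3. ENAH, an actin regulator, fell by 1.15 (SE 0.19), BCAR1 by 1.12 (SE 0.13) and TRIO, a guanine nucleotide exchange factor, by 1.03 (SE 0.17). The liprin gene PPFIA2 changed by −0.95 (SE 0.32). This call ended without control replicate 1 or 2 or any TcfEnR replicate (limma, adjusted p of 0.0519 to 0.0987). It also ended with centring on the 75th percentile (limma, adjusted p = 0.0727). Of 7 Src family kinases, which receptor phosphatases activate, 3 fell and 3 rose, with a median of 0.35. FYN was at 10.27, 10.29 and 9.87 in control arrays and at 8.57, 8.17 and 8.50 in TcfEnR arrays, a log2 fold change of −1.73 (SE 0.17). LYN changed by −0.93 (SE 0.15), or by −0.32 by the median of its probe sets, and FGR rose by 1.09 (SE 0.19). FRK and SRC rose by less, by 0.66 (SE 0.13) and 0.55 (SE 0.15). YES1 changed by −0.69 (SE 0.20), but did not pass without TcfEnR replicate 2, under any of the 3 other scalings or with averaged probe sets (limma, adjusted p of 0.0747 to 0.106).

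Among 9 genes of cadherins and catenins, with which PTPRM and PTPRK associate, 4 fell and none rose, with a median of −0.42, and 1 rose without control replicate 1 or under each other scaling. CDH2 (N-cadherin) fell from 10.44, 10.44 and 10.43 to 6.98, 6.78 and 6.83, and CTNNA2, CDH4 and CTNND2 changed by −2.10 (SE 0.27), −1.87 (SE 0.22) and −1.46 (SE 0.15) on the log2 scale. By the median of its probe sets, CDH4 changed by −0.78. CTNNB1 (β-catenin) had a log2 fold change of −0.18 (SE 0.17) and did not pass.

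**Figure D4:**
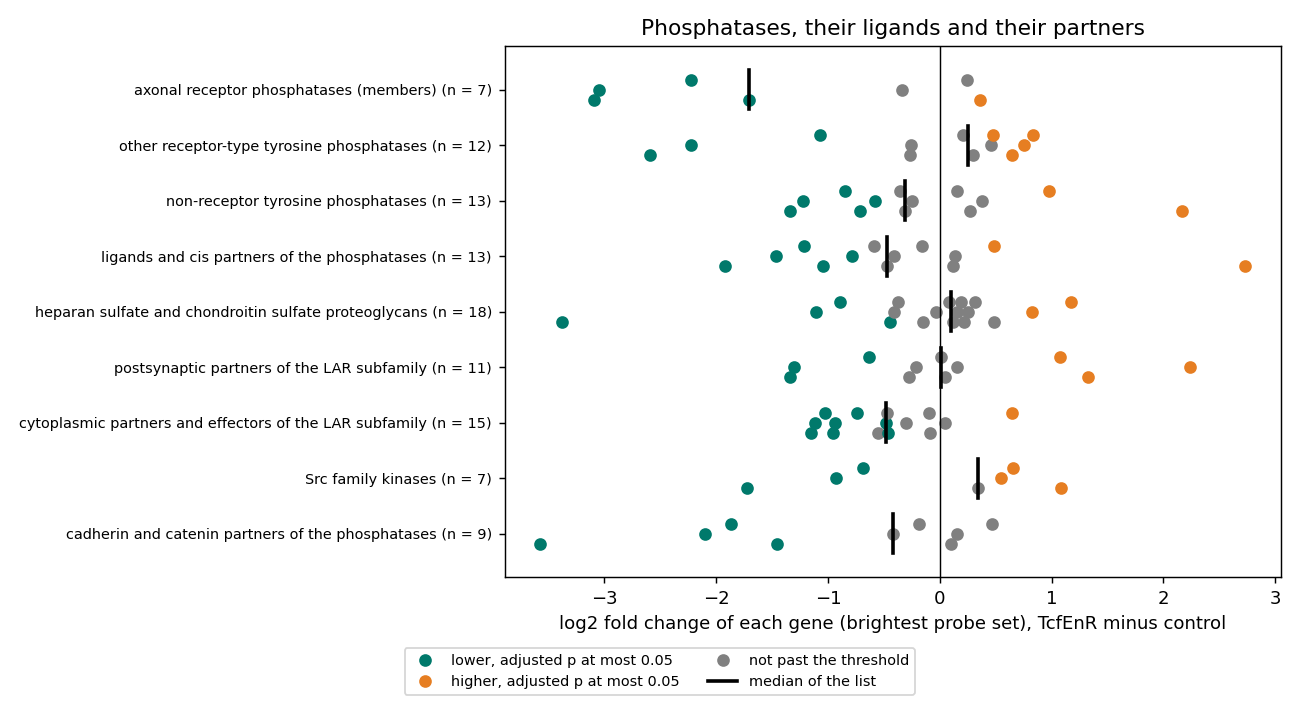
Log2 fold change (TcfEnR minus control) of each measured gene by its brightest probe set, in 9 lists, with the median of each list as a black bar. The median is −1.70, the value of PTPRD, for the 7 axonal receptor phosphatases and lies between −0.48 and 0.35 in the other 8 lists. Lists of cell type markers, not drawn here, had medians from −2.64 (motor neuron) to 0.97 (blood cell). The median was −2.54 for neuronal and −1.74 for neural crest markers.

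The genes whose signals followed each member most closely were found by Pearson correlation over the 6 arrays among all 13009 genes. For members whose groups lay apart, such a correlation is set largely by the difference between the groups, and the 6 points share it. The groups of PTPRF and PTPRS overlapped, so their correlations also rest on the spread of arrays within groups. For PTPRG the genes were IL6ST and ARMH4 (r = 0.999 for both), and for PTPRK ADGRL3 (r = 0.9997) and IDH3A (r = 0.999). For PTPRZ1 they were NUDT16L1 and WNT7B (r = 0.997 for both). For PTPRD they were MAB21L1 (r = 0.998) and CACNA1C (r = 0.996), for PTPRF SLC7A2 (r = 0.997) and ULK3 (r = 0.996), for PTPRM FAM214A (r = 0.995) and UBE2V2 (r = 0.994), and for PTPRS ZFYVE27 (r = 0.975) and KCNJ3 (r = 0.973). A correlation above 0.99 was shared by 224 genes for PTPRK and by 149 for PTPRG, but by none for PTPRS. A correlation takes no account of the size of a change. IL6ST and ARMH4 changed by −0.55 and −1.54, against −3.10 for PTPRG. ADGRL3 and IDH3A changed by −2.45 and −1.05, against −2.22 for PTPRK. NUDT16L1, WNT7B, MAB21L1 and CACNA1C fell as well, at −0.88, −1.45, −1.17 and −0.99. KCNJ3 and UBE2V2 rose, and ZFYVE27, SLC7A2, ULK3 and FAM214A did not pass.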

How the data were processed

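GFP-sorted cells of chick neural tubes were measured on 6 Affymetrix GeneChip Chicken Genome Arrays, 3 control and 3 TcfEnR. The authors deposited log2 values made by RMA (version not given in the sources used here), which corrects background, quantile normalizes, and combines probes into 1 value per probe set. These values were used as they were, with 1 column per array. The arrays did not share 1 distribution, since repeating quantile normalization moved the median log2 fold change of all genes from −0.09 to 0.03. With it, 3270 genes fell and 3573 rose, in place of 4237 and 3256. Of 38535 probe sets, 96 Affymetrix controls were left out. Gene symbols came from the platform annotation, which gave 27168 probe sets a single symbol, 177 several and 11094 none. RefSeq (GRCg7b) was used for gene lengths only, and no promoter or protein sequences were used here.

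TcfEnR and control were compared with limma 3.58.1 in R 4.3.3 (linear model, empirical Bayes), with Benjamini-Hochberg adjustment over 38439 probe sets. SE is the moderated standard error of the log2 fold change. Array number limits precision. The members and gene lists were chosen with earlier results of these data known. Named genes were the members, other receptor-type phosphatases that passed, up to 4 genes per partner list with the largest changes among those that passed, the 2 genes most correlated with each member, and the 2 brightest markers per cell type; others are named for their role or where the text says so. The labels call the arrays biological replicates, and the methods describe separate pools. The fit was tested on simulated data, with no outcome given here. Alternatives were the omission of each array, a replicate block, 3 other scalings, 3 variance models, a filter on dim probe sets, the 4-fold threshold and averaged probe sets.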

Additional observations from a re-analysis of the deposited data

How the results depend on the processing

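The falls of PTPRG, PTPRZ1, PTPRK and PTPRD passed the adjusted p of 0.05 in each of the 15 refits, with log2 fold changes over all alternatives of −3.45 to −2.81, −3.28 to −2.70, −2.40 to −1.83 and −1.97 to −1.49, and PTPRD missed the 4-fold threshold, as did PTPRK with averaged probe sets (−1.83) and by the median of its probe sets (−1.85). The number of genes that rose, 1, was 0 with the replicate block, with a variance trend, with averaged probe sets and past 4-fold, 2 under each of the 3 other scalings, and 0 to 1 when each array was left out. The number of member probe sets that rose, 3, was 7 with quantile normalization repeated, 5 with cyclic loess, 10 with 75th percentile centring, 1 with a variance trend, 5 with array weights, 0 past 4-fold and 1 to 3 without single arrays. The number that fell, 11, was 5 past 4-fold. Of the genes of the other receptor-type phosphatase and partner lists together, 35 fell and 17 rose, with 24 and 24 under 75th percentile centring and 5 and 3 past 4-fold. PTPRM reversed with averaged probe sets (−0.33) and by the median of its probe sets (−0.10), and so did the gap from PTPRS to PTPRM (−0.69 with averaged probe sets, −0.014 to 0.20 without single arrays). The gap from PTPRG to PTPRZ1 ran from −0.31 to 0.75 without single arrays. Among results that did not pass, the sign changed for ULK3 (0.076 with quantile normalization repeated, 0.056 with cyclic loess) and, with 75th percentile centring, for 4 PTPRM probe sets (0.19, 0.18, 0.14 and 0.077). Without single arrays, the first 3 of these ran from −0.11 to 0.072, −0.11 to 0.11 and −0.27 to 0.055, a PTPRS probe set from −0.099 to 0.32, LHX1 from −0.027 to 0.97, HBAD from −0.082 to 2.48 and COL1A1 from −0.34 to 0.98. By the median of their probe sets, PTPN12 (−0.86), PTPN7 (0.76) and PTPRC (0.36) changed by less than by the brightest, and NRCAM (−2.41) and PTN (−1.85) by more. The labels link same-numbered replicates by the number alone. The correlations of deviations between same-numbered arrays were −0.04, 0.02 and −0.06, which cannot show whether these arrays shared a batch. With the replicate block, 4 member genes fell, and 12 probe sets were lower and 2 higher. The cause of these changes was not tested.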
